A study of Mus musculus with 15 samples.

Results

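H3K27Ac and H3K27Me3 were examined at 9 genes of insulin and FoxO signalling in pancreatic islets: the receptors Insr and Igf1r, the adaptors Irs1 and Irs2, the regulatory subunit Pik3r1, the kinases Akt1 and Akt2, and the transcription factors Foxo1 and Foxo3. The genes were chosen by name, 9 of 22028 protein-coding genes in GENCODE mouse release 21 (GRCm38). A peak was at a promoter when it overlapped the 1 kb either side of a start site of any annotated transcript, and it belonged to the window of a gene when it lay in the gene or within 20 kb of it. The islets came from male CBA mice that started their diets at 10 weeks of age and stayed on them for 9 to 10 weeks. Group RD ate a regular diet, group HFD a high-fat diet, and group HFD-O304 the high-fat diet with 0.8 mg/g of O304, a compound that activates AMP-activated protein kinase. About 600 pooled, hand-picked islets went into each ChIP experiment, and the labels name no transgene in any group. The 2 replicates of each mark and diet were merged before peaks were called, so the data are 6 peak lists with 1 list per mark and diet. Differences between diets therefore have no replicate error, and no test between diets was possible.

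Insulin and insulin-like growth factors bind receptor tyrosine kinases, which phosphorylate the IRS adaptors. These recruit phosphoinositide 3-kinase, whose lipid product brings AKT to the membrane, and AKT phosphorylates FoxO factors and thereby keeps them out of the nucleus. In beta cells the pathway is known for its part in cell mass, survival and insulin secretion, and Irs2 is a known FoxO target. Of the marks read here, H3K27Ac is an acetyl group on lysine 27 of histone H3 that is found at promoters and enhancers in use. H3K27Me3 puts 3 methyl groups on that lysine and is laid down by Polycomb complexes at silent genes.

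The height of a peak is given as pileup over background. This is the mean number of fragments per base in the peak, divided by the number that the kept fragments would give if spread evenly over the genome. That background was 12.1, 13.7 and 12.2 fragments per base for H3K27Ac in RD, HFD and HFD-O304, from 83773042, 95218072 and 84694188 kept fragments. The lowest pileup over background in the lists was 2.40, 2.26 and 2.37, so a weaker H3K27Ac site could be called in HFD than in the other diets. For H3K27Me3 the backgrounds were 8.77, 6.46 and 6.74, and the lowest values called were 2.74, 3.10 and 2.97. The islet label was checked against promoter H3K27Ac at cell type markers. Of 8 beta cell markers, 6, 8 and 7 had a peak in RD, HFD and HFD-O304. None of 8 acinar and none of 6 leukocyte markers had a peak in any diet. Since islets are a mixture, fewer cells with a mark and less of the mark per cell cannot be told apart.

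All 9 genes had H3K27Ac at a promoter in each of the 3 diets. Among all protein-coding genes, 47.2%, 53.3% and 52.6% had such a peak in RD, HFD and HFD-O304, and 45.6% had it in all 3. H3K27Me3 was called at the promoter of 0 of the 9 genes in each diet, where 8.01%, 9.88% and 10.6% of protein-coding genes had a peak. Within the gene or 20 kb of it, H3K27Me3 was found at 2 of the 9 genes in RD and HFD (Akt2 and Foxo1) and at Akt2 in HFD-O304, where 29.9%, 30.6% and 36.4% of protein-coding genes had such a peak. The calls were not equally strong. In RD the −log10 q that the authors' peak caller gave was 4.44 at Igf1r, 4.21 at Irs1 and 3.67 at Akt1. With a minimum of 5, only 6 of the 9 genes kept a promoter peak in RD. In HFD 8 kept it, without Akt1, and in HFD-O304 all 9. The loss in RD was not particular to these genes. Of 68 other pathway genes, described below, 52, 55 and 51 had a promoter peak in RD, HFD and HFD-O304. With the same minimum 29, 45 and 43 kept it. The genes differed mostly in how far the acetylated stretch reached. At the 5′ end of the gene its width in RD ran from 1071 bp at Insr to 7189 bp at Irs2, leaving out Akt1, whose RD peak lay further inside the gene. The median over all genes with a peak there was 967, 1086 and 1062 bp in RD, HFD and HFD-O304.

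**Figure D1:**
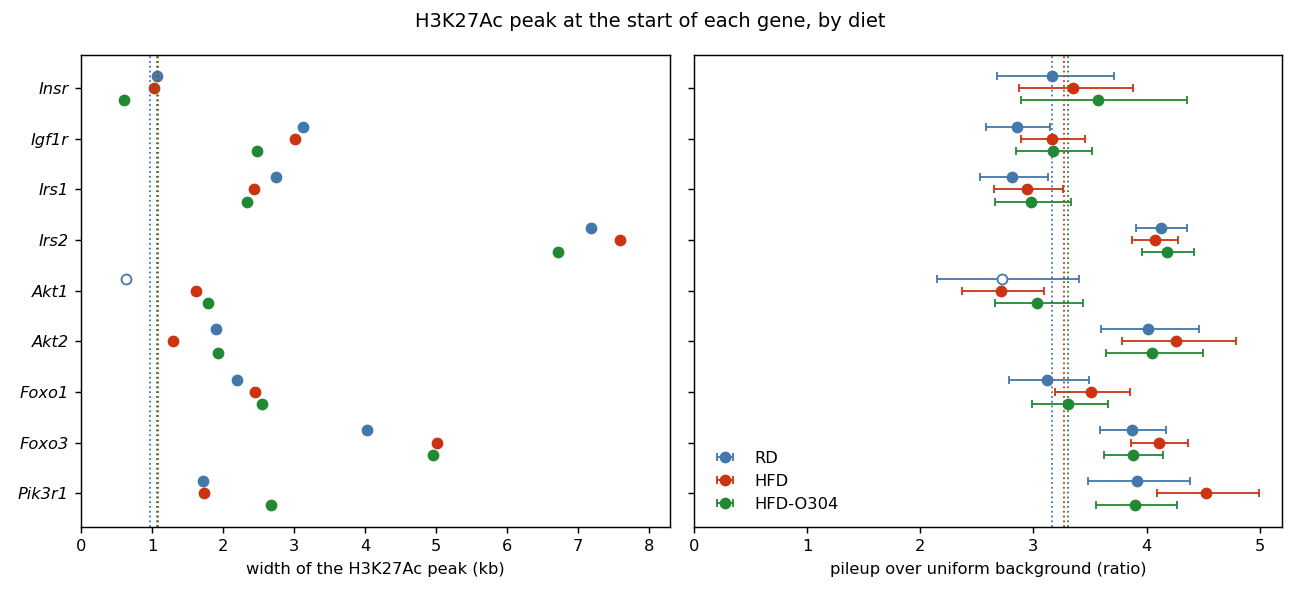
The H3K27Ac peak at the 5′ end of each gene, with its width in kb on the left and its pileup over background on the right, with RD in blue, HFD in red and HFD-O304 in green. Bars are 95% Poisson intervals on the estimated fragments (counting error only), dotted lines are the medians over all genes with a peak, and the open circle is the RD peak of Akt1, which lay more than 1 kb inside the gene. Irs2 and Foxo3 stood out by width in every diet, and the intervals of the 3 diets overlapped at each gene.

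The sequences shown next are those the description turns on. For the Irs2, Irs1 and Akt1 promoters they give the 250 bases before the RefSeq start (GRCm38.p6), which hold the insulin response motif CAAAACA or the FoxO-type motif GTAAACA. Both strands were searched, so that a match on the opposite strand appears as TGTTTTG or TGTTTAC, and the match is in capitals. These promoters are Irs2 (chr8:11008930-11009179, minus strand), Irs1 (chr1:82291440-82291689, minus strand) and Akt1 (chr12:112674885-112675134, minus strand).
Irs2 promoter: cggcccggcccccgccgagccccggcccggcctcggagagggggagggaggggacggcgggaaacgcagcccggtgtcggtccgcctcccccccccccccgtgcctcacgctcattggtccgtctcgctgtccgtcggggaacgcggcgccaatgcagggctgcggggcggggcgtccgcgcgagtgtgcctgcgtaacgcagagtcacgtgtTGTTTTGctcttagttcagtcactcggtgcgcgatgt
Irs1 promoter: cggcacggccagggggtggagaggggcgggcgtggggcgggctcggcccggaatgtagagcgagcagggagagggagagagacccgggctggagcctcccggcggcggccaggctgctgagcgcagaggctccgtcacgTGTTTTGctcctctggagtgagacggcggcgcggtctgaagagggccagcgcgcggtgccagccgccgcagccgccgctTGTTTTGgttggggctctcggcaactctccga
Akt1 promoter: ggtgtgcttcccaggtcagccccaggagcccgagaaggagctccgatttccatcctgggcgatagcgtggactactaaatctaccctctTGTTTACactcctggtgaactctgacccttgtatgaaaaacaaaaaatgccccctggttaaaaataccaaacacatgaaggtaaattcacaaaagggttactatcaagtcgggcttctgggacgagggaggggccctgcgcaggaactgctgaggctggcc

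Of the 9 genes, 8 had an entry in the RefSeq promoter table, with 13 start sites among them, and Insr had none. CAAAACA occurred in the windows of Irs1 and Irs2 alone, with 2 matches in Irs1 and 1 in Irs2, and it was present in 5.56% of all 32851 promoter windows of this length. GTAAACA occurred in 1 of the 13 windows, that of the outermost Akt1 start, and in 3.17% of all windows. This Akt1 window overlapped an exon annotated in RefSeq (chr12:112675019-112675552), and the match lay inside that exon. The full cAMP response element TGACGTCA was in 0 of the 13 windows against 1.55% of all, and the shorter TGACG, which the full element contains, was in 5 windows (Irs1, Foxo3, Pik3r1 and 2 of Akt2) against 17.8%. These are matches of letters and do not show that a factor binds there. Both insulin response windows lay wholly within H3K27Ac peaks in all 3 diets, whereas of the Akt1 window 0 bases lay in a peak in RD and HFD and 18 in HFD-O304. The windows differed in CpG dinucleotides, of which the median window of all promoters held 6. The Igf1r window held 42, more than 99.1% of all promoter windows, and those of Irs2, Foxo3, Irs1 and Foxo1 held 34, 31, 28 and 20. Of the 2 Pik3r1 windows, the one at the 5′ end held 30 and the internal one 6. The outermost Akt1 window held 7 and the internal one 31, and the 4 Akt2 windows held 10 at the 5′ end and 0, 5 and 2 inside the gene.

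Of the receptors, Insr, the insulin receptor gene (chr8:3122061-3279617, minus strand), had the narrowest 5′-end peak of the 9 genes in HFD and HFD-O304. It was 1071, 1031 and 594 bp wide in RD, HFD and HFD-O304. Its pileup over background was 3.17, 3.35 and 3.57 in the order RD, HFD, HFD-O304, near the medians of all promoter peaks at the 5′ end of genes, 3.17, 3.27 and 3.30. The peak was thus narrower in HFD-O304, and its mean over that narrower width was not lower. The estimated fragments numbered 152, 176 and 96 in RD, HFD and HFD-O304, and height over a fixed stretch was not tested. Igf1r, the receptor for insulin-like growth factor 1 (chr7:67952827-68233668, plus strand), had a broader and lower promoter peak. It measured 3131, 3007 and 2481 bp in RD, HFD and HFD-O304, with a pileup over background of 2.85, 3.16 and 3.17. The peak reached 2358, 2237 and 2111 bp upstream of the annotated 5′ end, in the same order. It was the only peak of either mark in the gene of 281 kb and its flanks in any diet.

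Insr also had H3K27Ac in an intron, 58.4 kb from its 5′ end, in all 3 diets. The peak there was 834, 980 and 822 bp wide in RD, HFD and HFD-O304. Its pileup over background was 2.82, 2.77 and 2.98, lower than at the promoter in each list. No annotated start site of another gene lay within 1 kb of it. The 3 peaks shared 709 bp, of which the middle 300 bases are shown on the strand of the gene (chr8:3221148-3221447, minus strand, GRCm38) and with each CG in capitals to show the density of CpG.
Insr intronic site: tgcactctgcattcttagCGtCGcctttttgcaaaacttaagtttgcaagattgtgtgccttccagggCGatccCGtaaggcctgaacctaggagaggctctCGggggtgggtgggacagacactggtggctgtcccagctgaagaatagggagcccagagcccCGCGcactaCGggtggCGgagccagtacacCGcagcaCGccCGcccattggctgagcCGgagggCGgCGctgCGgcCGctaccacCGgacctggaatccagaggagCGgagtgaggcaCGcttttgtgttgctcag
These 300 bases held 20 CpG dinucleotides at a GC content of 62.0%.

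The next genes of the pathway, Irs1 (chr1:82233101-82291416, minus strand) and Irs2 (chr8:10984681-11008458, minus strand) encode adaptors that dock phosphoinositide 3-kinase to the receptors. The promoter peak of Irs1 was 2740, 2431 and 2338 bp wide in RD, HFD and HFD-O304, with a pileup over background of 2.81, 2.95 and 2.98. It was wider than 96.3%, 92.3% and 91.9% of the peaks at the 5′ ends of genes, yet lower than most, as only 21.8%, 31.3% and 28.6% of them had a lower pileup over background. Irs2 was high as well as broad. Its peak was 7189, 7595 and 6718 bp in RD, HFD and HFD-O304 and had the width ranks 49, 61 and 71 among 9677, 10946 and 10838 genes. The pileup over background was 4.13, 4.07 and 4.18, higher than at 92.4%, 85.9% and 89.1% of genes. The stretch ran from 3133, 2810 and 2960 bp upstream of the 5′ end to 4055, 4784 and 3757 bp into the gene. It also covered the start of 9530052E02Rik, a non-coding gene beside Irs2, so the acetylation cannot be assigned to Irs2 alone.

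Irs1 also had H3K27Ac in its intron, 8.03 kb from the 5′ end, in all 3 diets. Its pileup over background was 2.96, 3.18 and 3.69 in the order RD, HFD, HFD-O304, and its width 528, 772 and 355 bp. In every list this mean was higher than that of the promoter peak of the same gene, but it was taken over a much narrower stretch. The order RD, HFD, HFD-O304 was one of rising height. The estimated fragments at the intronic site numbered only 70.1, 125 and 59.4, which limits both comparisons, and height over a fixed stretch was not tested. The 278 bases shared by the 3 peaks are shown on the strand of the gene (chr1:82283427-82283704, minus strand, GRCm38), with each CG in capitals.
Irs1 intronic site: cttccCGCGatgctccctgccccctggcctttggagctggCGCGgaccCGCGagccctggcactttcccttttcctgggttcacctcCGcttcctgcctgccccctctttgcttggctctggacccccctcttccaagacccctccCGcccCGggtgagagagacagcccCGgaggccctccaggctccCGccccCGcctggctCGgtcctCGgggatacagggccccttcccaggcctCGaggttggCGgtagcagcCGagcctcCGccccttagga
They held 18 CpG dinucleotides at a GC content of 70.5%. At Irs2 the only site besides the promoter was a peak of 569 bp, 29.7 kb from the 5′ end and downstream of the gene. It was called in RD alone, with a pileup over background of 2.76.

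Pik3r1 (chr13:101680563-101768217, minus strand) encodes p85 alpha, a regulatory subunit of phosphoinositide 3-kinase, and shorter forms from internal start sites. At its 5′ end H3K27Ac was 1716, 1728 and 2673 bp wide in RD, HFD and HFD-O304. The pileup over background was 3.91, 4.53 and 3.90 in the order RD, HFD, HFD-O304. HFD thus had the highest value of the 3 and HFD-O304 the widest peak. An internal start of the gene lay in a peak 73.5 kb from the 5′ end that was called in RD (2.47) and HFD (2.80) and not in HFD-O304. In intronic positions, a site at 9.82 kb was called in all 3 diets (2.53, 2.32 and 2.49) and a site at 14.9 kb, at the start of the non-coding gene Gm36638, in HFD (2.53) and HFD-O304 (2.42). Of these internal peaks, the one at the internal start in HFD had the highest −log10 q, 5.14, and the others lay below the limit of 5.

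The genes Akt1 (chr12:112653821-112674884, minus strand) and Akt2 (chr7:27591552-27640826, plus strand) encode the serine/threonine kinases downstream of phosphoinositide 3-kinase. Akt1 had the lowest pileup over background of the 9 promoters in RD and HFD, while in HFD-O304 that of Irs1 was lower. In RD its peak was 635 bp wide with a pileup over background of 2.72, and it reached only start sites inside the gene. In HFD the peak was 1617 bp wide at 2.71, and in HFD-O304 it was 1784 bp wide at 3.03, and in both it came within 1 kb of the 5′ end. With the 5′ end of the gene as the only start site, RD had no call at Akt1. Around Akt1, H3K27Ac in all 3 diets also lay at the promoters of the neighbours Zbtb42 and Siva1, in an intron at 10.0 kb, and 18.7 kb upstream beside the non-coding gene Gm30238. An exonic site at 12.7 kb was called in HFD (2.40) and HFD-O304 (2.72). A peak at a further internal start, 3.65 kb from the 5′ end, was called in HFD alone (2.36). That value lay below the lowest one called in RD and in HFD-O304.

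Akt2 was among the more strongly acetylated of the 9 genes at its 5′ end. The peak there was 1902, 1296 and 1924 bp wide in RD, HFD and HFD-O304, with a pileup over background of 4.01, 4.26 and 4.05. Inside the gene more bases were called with H3K27Ac in HFD and HFD-O304 than in RD. A stretch around the start sites of 6 further Akt2 transcripts, 16.1 kb from the 5′ end, carried 4602 bp of peaks in HFD (2.63) and 4299 bp in HFD-O304 (2.68), and none in RD. A weaker site near another internal start was called at 4.56 kb in RD (2.55) and at 5.47 kb in HFD (2.43) and HFD-O304 (2.49). All of these peaks inside the gene had a −log10 q below 5. An HFD peak of 1321 bp in the longer stretch, at 2.35, lay below the lowest value called in RD (2.40), and the others lay above it. Downstream, 63.0 kb from the 5′ end of Akt2, the promoter of the neighbour Ttc9b carried H3K27Me3 in all 3 diets, at 2.80, 3.47 and 3.21, and an H3K27Ac peak of 387 bp in HFD-O304 alone (2.68).

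At the end of the pathway, Foxo1 (chr3:52268336-52353221, plus strand) and Foxo3 (chr10:42181841-42276755, minus strand) encode the FoxO factors that AKT phosphorylates. The promoter peak of Foxo1 was 2197, 2447 and 2545 bp wide in RD, HFD and HFD-O304, with a pileup over background of 3.12, 3.51 and 3.31. It also covered the start of the non-coding gene Gm20402. Foxo3 was broader and higher. Its promoter peak was 4024, 5009 and 4956 bp in RD, HFD and HFD-O304, wider than 98.9%, 99.0% and 98.9% of genes, and its pileup over background was 3.87, 4.11 and 3.88. In its introns, 7 further H3K27Ac sites were each called in 1 diet only, 5 of them in HFD, 1 in RD and 1 in HFD-O304. Their pileup over background lay between 2.33 and 2.61. None of them recurred in another list. The HFD sites at 86.5 kb (2.34) and 7.26 kb (2.33) lay below the lowest value called in RD (2.40) and in HFD-O304 (2.37). Among all H3K27Ac regions outside promoters and within 20 kb of a protein-coding gene, 50.9% were in 1 diet.

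Apart from the Ttc9b promoter beyond Akt2, where the peaks of both marks overlapped in HFD-O304, Foxo1 held the only site of the 9 windows where H3K27Ac and H3K27Me3 overlapped. It lay in an intron about 60.4 kb from the 5′ end. H3K27Ac was called there in all 3 diets, with a pileup over background of 2.49, 2.49 and 3.08 in the order RD, HFD, HFD-O304. H3K27Me3 was called in RD (3.02) and HFD (3.28) and not in HFD-O304, where the lowest value that could be called was 2.97. The sequence of this site was a tandem array. The 12 bases that recur most often in the 1035 bp H3K27Me3 region were present 24 times, and all 23 gaps between neighbouring copies measured 43 bases. The middle 300 bases are shown (chr3:52328627-52328926, plus strand, GRCm38), with the recurring 12 bases in capitals.
Foxo1 intronic array: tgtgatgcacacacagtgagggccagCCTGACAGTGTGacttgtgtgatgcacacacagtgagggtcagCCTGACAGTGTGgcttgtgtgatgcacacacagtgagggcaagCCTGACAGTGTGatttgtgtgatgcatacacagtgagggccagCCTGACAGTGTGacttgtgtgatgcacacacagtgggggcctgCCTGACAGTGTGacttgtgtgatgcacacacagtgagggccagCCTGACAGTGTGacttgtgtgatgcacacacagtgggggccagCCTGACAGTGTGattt
Over the 1848 bp covered by H3K27Ac peaks, 90.0% of the bases equalled the base 43 positions further on, whereas at the other 32 H3K27Ac sites the best such match at any distance from 10 to 200 bases was 40.0% or less. A match of at least 70% was found in 3.72%, 3.77% and 3.48% of all H3K27Ac peaks in RD, HFD and HFD-O304. Of the H3K27Ac peaks that overlapped H3K27Me3 in the same diet, 16.4%, 12.9% and 14.8% met it. Repeat masking of the genome covered only 1.03% to 1.93% of the bases of the peaks at this site, so a filter on masked repeats left it in. The reads were 50 nt long, and the peaks were called without the input samples. The part of the array in these peaks was not tested.

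**Figure D2:**
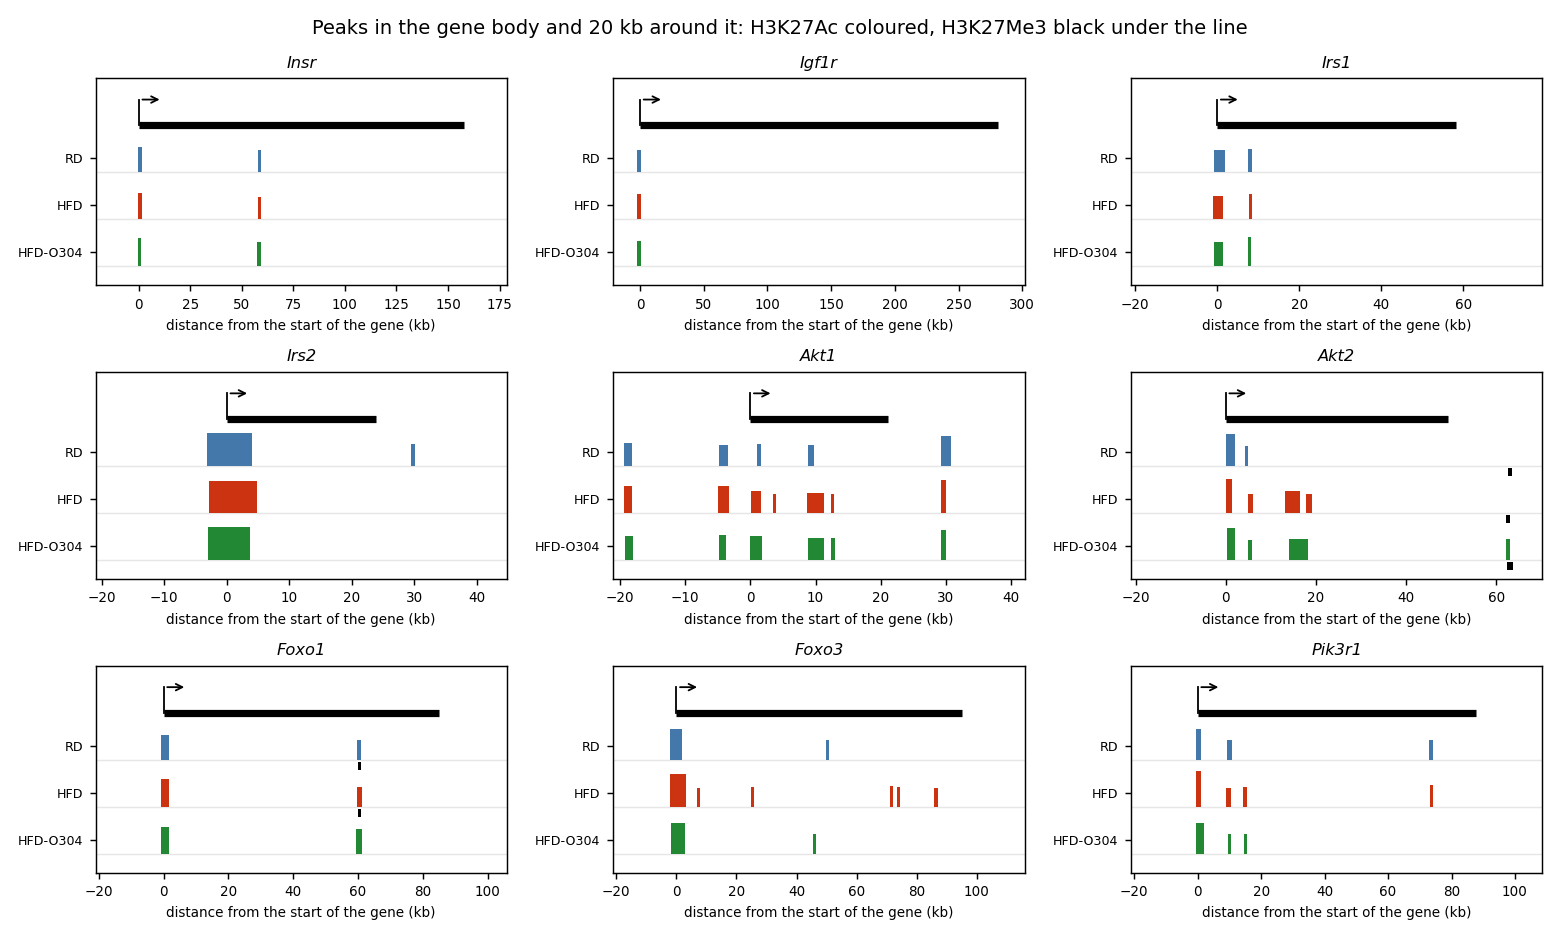
Peaks in each gene and 20 kb around it, plotted by distance from the 5′ end of the gene in kb, with the gene as a black bar and the arrow in the direction of transcription. Coloured blocks are H3K27Ac peaks, with a height proportional to pileup over background, and black blocks under the line are H3K27Me3 peaks, and the narrowest peaks are widened so that they can be seen. H3K27Ac was present at the 5′ end in every list, except for the RD list of Akt1 where it lay further inside the gene, and H3K27Me3 appeared at 2 places, downstream of Akt2 and in Foxo1.

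Over the windows of all 9 genes together, 21, 29 and 23 H3K27Ac peaks were called (RD, HFD, HFD-O304), and they covered 36.3, 48.7 and 43.8 kb. The whole lists held 16314, 21674 and 20305 H3K27Ac peaks, and with the lists reduced to equal size the windows held 21, 21 and 19 peaks. Joined where they overlapped, they made 33 sites, of which 17 had a peak in all 3 diets, 5 in 2 diets and 11 in 1. Of 14 sites at any start site of these genes, 9 were in all 3 diets, where 75.9% of the joined H3K27Ac regions at promoters of all protein-coding genes were. These were the 9 sites at the 5′ ends, among them that of Akt1, whose RD peak reached only internal starts. Of the 5 sites at other start sites, 0 were in all 3. Of 16 sites away from promoters, 6 were in all 3 diets, 2 in HFD and HFD-O304, and 8 in 1 diet, 5 of which were in HFD. Among all H3K27Ac regions outside promoters and within 20 kb of a protein-coding gene, 26.2% were in all 3 diets and 50.9% in 1 diet. The share of these 16 sites found in a single diet was thus near the background.

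The next comparison asked whether the height of the promoter peaks differed between diets. For HFD over RD, the ratio of pileup over background across all promoter peaks of a gene ran from 0.760 at Akt2 to 1.20 at Pik3r1, with a median over the 9 genes of 1.06. The median over all 10207 genes with a promoter peak in both lists was 1.04. The counting interval excluded 1 at 2 of the 9 genes. At Pik3r1 the ratio was 1.20 (95% interval 1.05 to 1.37), where 7.95% of all genes had an interval above 1. At Akt2 it was 0.760 (0.675 to 0.857), where 1.06% of all genes had an interval below 1. The Akt2 value rested on which start sites were counted. HFD had additional weak peaks at internal starts, and with the 5′ end alone the Akt2 ratio was 1.06 (0.903 to 1.25). With the 5′ end alone the Pik3r1 ratio was 1.16, with an interval of 0.992 to 1.35. At the 8 genes with a 5′ peak in both lists, 7 were higher in HFD and 4 were wider, where 66.5% of all genes were higher and 71% wider. At the other 7 genes the intervals over all start sites included 1, with ratios from 0.974 at Akt1 to 1.12 at Foxo1.

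For HFD-O304 over HFD, the ratio ran from 0.943 at Foxo1 to 1.14 at Akt1, with a median of 1.01 over the 9 genes and over all 11060 genes alike, and each of the 9 intervals included 1, where 2.84% of all genes had an interval above 1 and 2.34% below it. At the 5′ end, 4 of the 9 peaks were wider in HFD-O304 than in HFD, where 46% of all genes were. The direction at Akt2 turned with the start sites counted, from 1.05 over all of them to 0.950 with the 5′ end alone. With the 5′ end alone Pik3r1 had a ratio of 0.861 (0.753 to 0.987), where 5.72% of genes had a lower ratio and 1.97% an interval below 1. For HFD-O304 over RD, the median was 1.06 over the 9 genes and over all 10154 genes. The interval was below 1 at Akt2 alone, at 0.801 (0.710 to 0.904), where 0.955% of all genes had such an interval, and with the 5′ end alone it was 1.01 (0.867 to 1.17). No interval of the 9 was above 1, as it was at 8.39% of all genes. The 3 comparisons share their lists and are not independent of each other. Among the 9 genes, Pik3r1 was thus the gene whose 5′ peak varied most in mean height between lists. The mean was high in HFD and lower by a similar amount in RD and HFD-O304. It is taken over the called width, which was alike for RD (1716 bp) and HFD (1728 bp) but larger for HFD-O304 (2673 bp). The estimated fragments at Pik3r1 numbered 301 for RD, 398 for HFD and 472 for HFD-O304. The lower mean of HFD-O304 is therefore not a count of fewer fragments, and height over a fixed stretch was not tested. Insr had the widest counting interval for HFD over RD with the 5′ end alone, 0.847 to 1.32, since its narrow peak held few fragments.

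**Figure D3:**
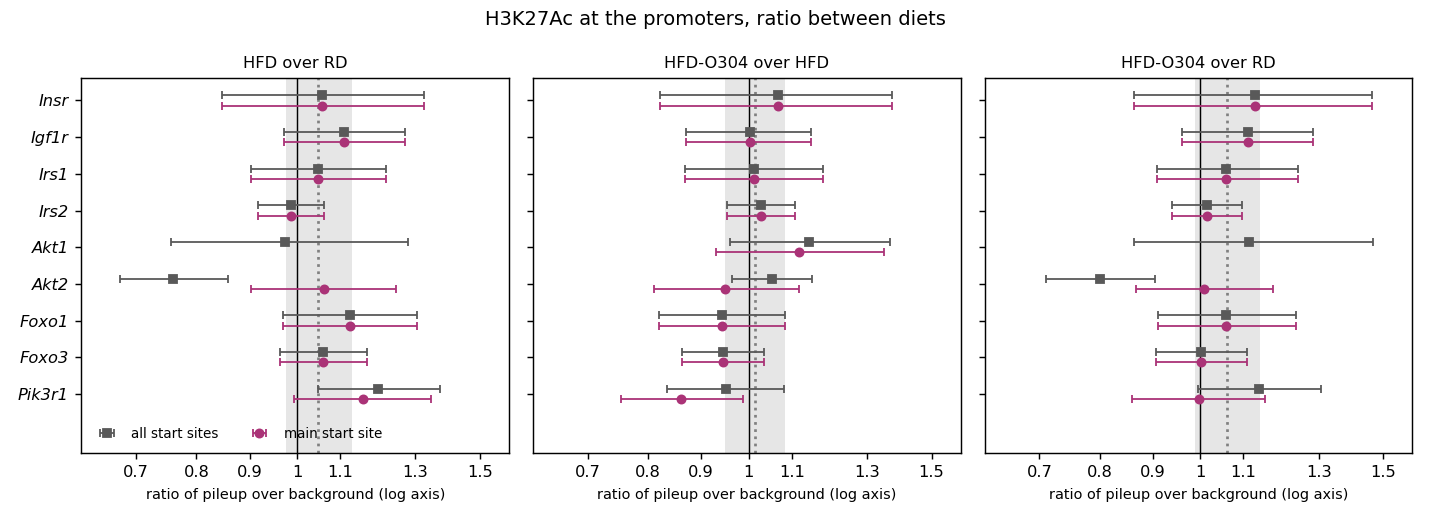
Ratio of H3K27Ac pileup over background between diets at each gene on a log axis, with all start sites of the gene (squares) and with the 5′ end alone (circles). Bars are 95% counting intervals without replicate error, grey bands hold the middle 50% of all genes at their 5′ end, and dotted lines their medians. Akt2 lies at 0.760 in HFD over RD with all start sites and at 1.06 with the 5′ end alone, and Akt1 has no circle in the ratios to RD.

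Of 68 other genes of the pathway, 52, 55 and 51 had promoter H3K27Ac in RD, HFD and HFD-O304, and 50 (73.5%) had it in all 3 diets, where 45.6% of protein-coding genes did. All 16 genes of the kinase and mTOR arm had it in RD and in HFD. The exception in HFD-O304 was Mlst8, a subunit of the mTOR complexes. Calls differed between diets at 5 of the 68 genes, where they differed at 10.4% of all protein-coding genes. Ins1, which encodes insulin, was called in RD (2.86) and HFD (3.12) and not in HFD-O304, while Ins2 was called in all 3 diets (2.81, 2.75 and 2.75). Mlst8 was called in RD (2.73) and HFD (2.74). Grb10, an adaptor that restrains the receptors, was called in HFD (2.35) and HFD-O304 (2.50), and Sh2b2, an adaptor of the insulin receptor, in HFD alone (2.37). The HFD values of both lay below the lowest value called in RD (2.40). That of Sh2b2, 2.3684, also lay below the lowest one called in HFD-O304 (2.3715). Cat, which encodes catalase, was called in HFD alone (2.95). No promoter H3K27Ac was called in any diet at 13 genes, 6 of them among 17 FoxO target genes, including Pck1 and G6pc of gluconeogenesis and Fbxo32 and Trim63, ubiquitin ligases known from muscle. Among all protein-coding genes, 56% had it in at least 1 diet, so lacking it in every diet was not particular to FoxO targets.

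Promoter H3K27Me3 was called at 3, 4 and 6 of the 68 genes in RD, HFD and HFD-O304. The share of all protein-coding genes was 8.01%, 9.88% and 10.6% in the same order, so it rose likewise. Igf2, which encodes insulin-like growth factor 2, was the only one with the mark in all 3 diets, where 6.24% of protein-coding genes had it. Igf1, the other growth factor ligand, had it in HFD-O304 alone. Grb10 and Sgk1 carried both marks at a promoter in HFD and HFD-O304, and Enpp1 in RD and HFD-O304. As any start site of a gene counted, the marks need not lie at the same one. Among all protein-coding genes, 2.52%, 3.88% and 3.43% carried both in RD, HFD and HFD-O304. Pdk4, a kinase that inhibits pyruvate dehydrogenase, had H3K27Me3 in HFD and HFD-O304, and Igfbp1, a secreted binding protein, in RD alone.

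By their widest promoter peak in any diet, the broadest of these 68 genes were Bcl2l11, Bcl6 and Socs3. Bcl2l11, which promotes cell death, had a peak of 3074, 2838 and 3326 bp in RD, HFD and HFD-O304. Socs3, an inhibitor of receptor signalling, had 2402, 2851 and 3057 bp, and Bcl6, a transcriptional repressor, 2586, 3195 and 2427 bp. All 3 were narrower than Irs2 and Foxo3 in every diet.

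**Figure D4:**
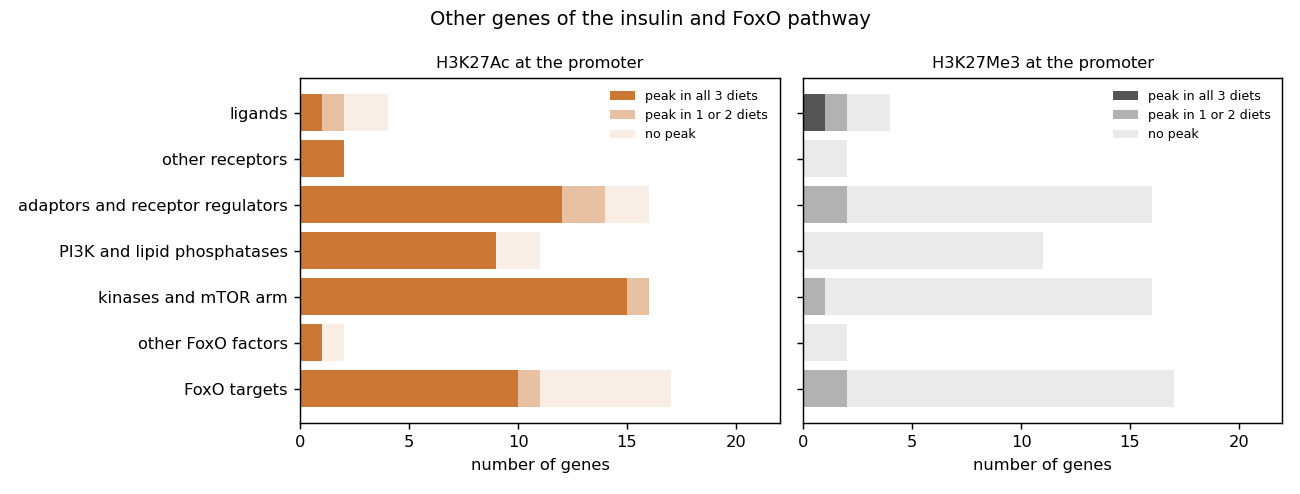
Number of other pathway genes with a promoter peak in all 3 diets, in 1 or 2 diets, or in none, by role, for H3K27Ac (left) and H3K27Me3 (right). The kinases and mTOR arm had H3K27Ac in all 3 diets at 15 of 16 genes, the FoxO targets at 10 of 17, and H3K27Me3 in all 3 diets was present at Igf2 alone.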

How the data were processed

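Islet ChIP-seq for H3K27Ac and H3K27Me3 comprised 12 ChIP samples (2 per mark and diet) and 3 inputs, grouped by mark and diet from the titles. Read pairs had been aligned by the authors with bowtie2 to GRCm38, and the 2 replicates of a group were combined before broad peak calling in MACS 2.1.2. The q cutoff per the file headers was 0.01, with 1 fragment kept at a position, an effective genome size of 1.87e9, and neither a control nor a local background. The pileup deposited by the authors is a signal, the coverage in fragments at a base. Their deposited −log10 q sets it against a uniform background, and the deposited fold enrichment is a ratio to that background with 1 added to both terms.

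Here the pileup was divided by kept fragments times fragment size over the genome size. Where a gene had several promoter peaks, they were averaged by width. Fragments per peak were estimated as pileup times width over fragment size, and gave 95% Poisson intervals for levels and Clopper-Pearson intervals for ratios. These cover counting error only, and peaks were selected for height. No peak ended past a GRCm38 chromosome. Sequences were read from RefSeq GRCm38.p6 with pysam 0.24.0 (Python 3.11.15, pandas 2.3.3, SciPy 1.17.1). The calls and ratios were tested on simulated peaks, with counts drawn from the Poisson model that the intervals assume. The simulation had no calling threshold and no spread between replicates, so it checked the computation only. Genes were named as all 9 genes, the other pathway genes whose promoter call differed between diets, up to 10 more with the widest peaks or with H3K27Me3 in all 3 diets, and neighbours with a peak at their promoter. The 4 FoxO targets named as lacking H3K27Ac were chosen after their values were seen. The genes and lists were chosen with earlier results of these data known. Other windows, start sites, thresholds and measures of height were tried as alternatives. The inputs were not used here.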

Additional observations from a re-analysis of the deposited data

How the results depend on the processing

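No paired analysis was possible because each list had been called on merged replicates. Over 427 recomputed values, 369 kept to the reported value, which for a count means within 1.5 times and for a ratio within its counting interval. Some of them could not differ. At a gene with 1 promoter peak, such as Insr, the highest peak and the 5′ end alone give the same ratio. The number of genes with promoter H3K27Ac stayed between 6 and 9 in RD, 8 and 9 in HFD, and was 9 in HFD-O304 under every alternative, and promoter H3K27Me3 stayed at 0. Among the other pathway genes only the −log10 q of at least 5 moved a count by more than that, to 29 in RD. That limit also left 8, 13 and 15 H3K27Ac peaks in the windows (RD, HFD, HFD-O304), covering 20.0 kb in RD and 29.5 kb in HFD, and 0 H3K27Me3 peaks. Lists of equal size left 21, 21 and 19 H3K27Ac peaks. With the gene body alone H3K27Ac covered 22.3 kb in RD. For single genes the covered length fell by more than this limit in 26 recomputations and rose in 2, those of Akt2 with 50 kb around it. The H3K27Me3 peaks in the windows, few to begin with, numbered 1, 1 and 0 with the gene body alone, with 5 kb around it or without peaks at other promoters, 6, 4 and 4 with 50 kb, 1 in RD at a common fold cutoff, and 0 in HFD-O304 with lists of equal size. The Akt2 ratio reversed with the highest peak or the 5′ end alone, to 1.06 for HFD over RD, 1.01 for HFD-O304 over RD and 0.950 for HFD-O304 over HFD. These settings leave out the weaker internal peaks. A difference below the counting intervals was not detectable at this depth, and the spread between animals is not known.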
